A study of Homo sapiens with 12 samples.

Results

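Libraries of HCT116 cells that had been stably transfected with an EHF expression plasmid were compared with libraries of HCT116 cells carrying the empty vector, to describe the genes and pathways that EHF alone induced or repressed. The comparison used 6 of the 12 RNA-seq libraries of the experiment, 3 of each line. HCT116 cells derive from a human colorectal carcinoma. HCT116-EHF cells carried pcDNA3.1 with EHF and HCT116-EV cells carried the empty pcDNA vector, and both were obtained as geneticin-resistant cells, with no other agent or allele differing by the labels. The paper's methods describe isolation of resistant clones, and the number of clones behind each line is not given in the sources used here, so an effect of EHF and a difference between clones cannot be told apart. The other 6 libraries were from HCT116-CDX1 cells, which carried a CDX1 retrovirus, and from HCT116-EHF+CDX1 cells, which had received the EHF plasmid on top of it. The study speaks of biological replicates for its clustering of RNA-seq data, in a smaller number than the 3 libraries of a line used here. Whether these 3 came from separate cultures is not given in the sources used here, so the p-values measure the spread between these libraries, which may be technical.

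EHF belongs to the epithelium-specific branch of the ETS transcription factors, which bind DNA at sites built around a GGAA core. It is expressed in glandular epithelia, among them the colonic epithelium, and several ETS factors act on the same genes as AP-1 and interferon regulatory factors. The textbook targets of these partners include matrix proteases, chemokines and the antiviral genes induced by interferon.

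EHF itself (Entrez 26298, chromosome 11, 34621093 to 34663288 on GRCh38) was at 335, 326 and 237 CPM in HCT116-EV and 19034, 19639 and 19263 CPM in HCT116-EHF libraries. The lowest HCT116-EHF library was far above the highest HCT116-EV library, with a log2 fold change of 6.01 (SE 0.18, BH-adjusted p = 8.73e-10, edgeR), where SE is the standard error and BH stands for Benjamini-Hochberg. Reads of the plasmid and of the cell's own EHF gene cannot be told apart in these counts. EHF took between 2.04% and 2.13% of all reads in the HCT116-EHF libraries. CDX1 had at most 4 reads in any of the 6 libraries.

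The labelled cell type was checked with 16 epithelial and colorectal genes, whose summed level was 5800 to 6163 CPM in HCT116-EV and 5014 to 5155 CPM in HCT116-EHF libraries. CPM here is the read count scaled to library size with TMM factors. KRT8, KRT18, KRT19, EPCAM and CDH1 were at 99.4 CPM or more in each of the 6 libraries, while LGALS4 and CEACAM5 reached at most 0.368 CPM. Fibroblast markers summed to 38.6 to 80.9 CPM in HCT116-EV and 47.2 to 52.7 CPM in HCT116-EHF libraries, nearly all of it COL1A1, with COL1A2, DCN and LUM at no more than 4 reads in any library. Leukocyte markers summed to 2.75 to 12.6 CPM in HCT116-EV and 40.2 to 42.5 CPM in HCT116-EHF libraries. ITGAM and CD68 made up nearly all of that sum, and the defining leukocyte gene PTPRC had 1 read in HCT116-EV replicate 3 and none elsewhere. The part of other cell types in the results was not tested, and in bulk RNA fewer cells of a type and less RNA per cell cannot be told apart. CD3D and MS4A1 had no read in any of the 6 libraries.

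Total counts ranged from 17528122 to 74186741 per library, and a limit of 3 reads corresponded to between 0.0375 and 0.160 CPM, which covers counting error only. HCT116-EV replicate 3 stood apart from the other libraries of its line. Its log2 CPM correlated with replicate 1 at 0.959, against 0.991 between replicates 1 and 2, as a description over 15842 genes that share their libraries. A difference of at least 2-fold separated replicate 3 from replicate 1 in 3513 genes and from replicate 2 in 3450 genes. The same measure gave 674 genes between replicates 1 and 2, and between 2330 and 2552 genes between an HCT116-EHF library and replicate 1 or 2. Replicate 3 was also the deepest library of its line, with 55958129 reads, of which the 10 most abundant genes took 18.3%, against 8.19% and 8.39% in replicates 1 and 2.

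The genes that set replicate 3 apart were of opposite kinds. It was at least 2-fold above the mean of replicates 1 and 2 in 2442 genes and at least 2-fold below it in 953 genes. Mitosis genes were lower in it, with a median log2 difference of -1.63 over 69 genes, as were DNA replication genes (-1.04 over 65 genes) and oxidative phosphorylation subunits (-0.94 over 76 genes). Acute-phase and complement genes were higher in it (1.44 over 23 genes), as were NF-kB targets (1.15 over 38 genes), ATF4 and amino acid stress genes (1.10 over 39 genes) and immediate-early genes (1.05 over 28 genes). BIRC5, a mitotic survival gene, was at 213, 209.7 and 34.6 CPM in the 3 HCT116-EV libraries, and CCNA2, which encodes cyclin A2, at 84.8, 85.4 and 14.7 CPM. EGR3, an immediate-early transcription factor, was at 2.11, 2.18 and 29.5 CPM, and DDIT3, a stress-induced transcription factor, at 5.86, 5.63 and 52.8 CPM. Each of these genes had similar levels in replicates 1 and 2 and a distant one in replicate 3, so counts below are given with and without this library where leaving it out moved them by over 1.5 times.

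With all libraries, HCT116-EHF cells had 901 induced and 409 repressed genes relative to HCT116-EV cells in the edgeR quasi-likelihood test against a 1.5-fold change at an adjusted p of 0.05. These are 5.69% and 2.58% of the 15842 genes tested, with genes of the Y chromosome left out. Of them, 413 were induced and 139 repressed by at least 2 on the log2 scale. For all 901 and all 409, the 3 HCT116-EHF libraries lay wholly above or below the 3 HCT116-EV libraries, which was the case for 22.1% (above) and 21.4% (below) of all genes tested. This lack of overlap was largely set by selecting genes on the call. Against no change, 2369 genes were higher and 2390 lower at an edgeR adjusted p of 0.05. The median log2 fold change of all tested genes was -0.04, and log2 fold changes below are read beside that value.

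Without HCT116-EV replicate 3, 1501 genes (9.47%) were induced and 559 (3.53%) repressed by the same edgeR test over the same 15842 genes. The fits shared 862 induced and 357 repressed genes. A further 639 genes were induced only without replicate 3, and in 625 of them replicate 3 was above both other HCT116-EV libraries, against 49.0% of all genes. In 207 of the 639 genes, replicate 3 was above the highest HCT116-EHF library. Another 202 genes were repressed only without it, and in 195 of them replicate 3 was below both other HCT116-EV libraries, against 41.4% of all genes. Both positions of replicate 3 were largely set by selecting genes on the call gained without it. Only with replicate 3 were 39 genes induced and 52 repressed. Leaving out this 1 library thus raised the number of induced genes by more than 1.5 times, while most genes called with all libraries were called in both fits.

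**Figure D1:**
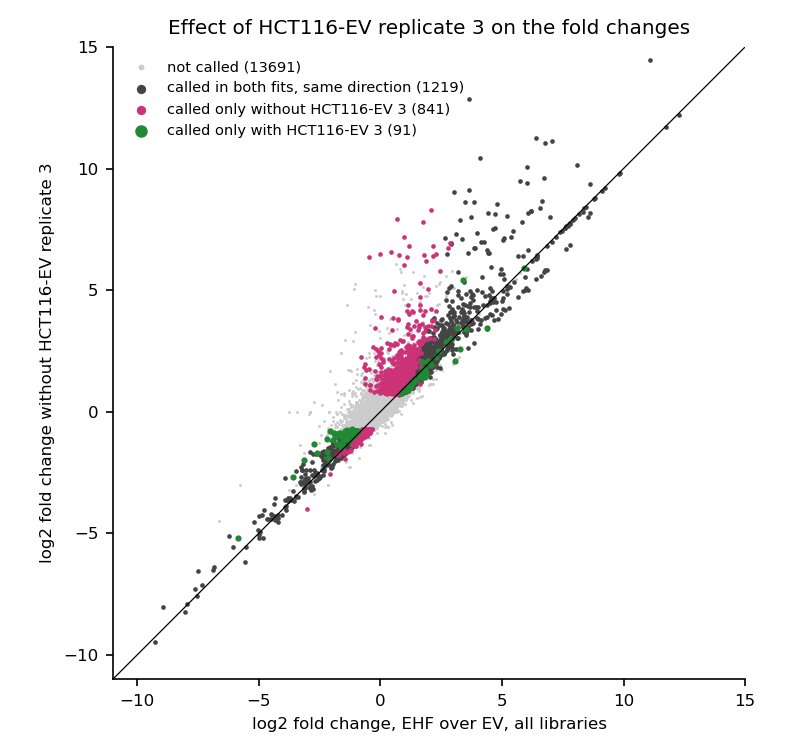
Log2 fold change of HCT116-EHF over HCT116-EV cells for 15842 genes, with all libraries on the horizontal axis and without HCT116-EV replicate 3 on the vertical axis. Points are genes and the line marks equal values. Colours mark the 1219 genes called in both fits, the 841 called only without replicate 3, of which 639 were induced, and the 91 called only with it.

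Examples show the levels behind calls with and without replicate 3. CXCL8, a neutrophil-attracting chemokine, was at 0, 0 and 4.61 CPM in HCT116-EV and 23.2, 22.4 and 24.3 CPM in HCT116-EHF libraries. It had no read in replicates 1 and 2 and was induced in both fits, with a log2 fold change of 3.63 (SE 0.83, BH-adjusted p = 0.00627, edgeR). CCL20, another chemokine, was at 0, 0 and 1.103 CPM in HCT116-EV and 0.692, 0.987 and 0.587 CPM in HCT116-EHF libraries. Replicate 3 exceeded every HCT116-EHF library, and CCL20 was called only without it. HSPA6, an inducible HSP70 gene, was at 0, 0 and 0.441 CPM in HCT116-EV and 0.798, 0.819 and 1.15 CPM in HCT116-EHF libraries, and MYRFL, a membrane-bound transcription factor gene, at 0, 0 and 0.441 CPM in HCT116-EV and 0.638, 0.714 and 0.712 CPM in HCT116-EHF libraries. Both had reads in replicate 3 alone among the HCT116-EV libraries and were likewise called only without it. In the other direction, ASCL2, an intestinal stem cell transcription factor, had 3, 4 and 0 reads in the HCT116-EV and 0, 0 and 1 read in the HCT116-EHF libraries, and was called repressed only without replicate 3. ZNF709 (0.689, 1.18 and 0.294 CPM against 0.213, 0.2101 and 0.09998 CPM with EHF) and the globin gene HBA1 (1.85, 2.04 and 0.331 CPM against 0.266, 0.546 and 0.562 CPM with EHF) were also called repressed only without it. Genes called induced only with replicate 3 were low throughout: GREM1, a BMP antagonist, had no read in HCT116-EV and 28 in all HCT116-EHF libraries, TBX4 had 1 and 41 reads, and HUS1B 2 and 40. Replicate 3 did not stand apart in these genes. Their log2 fold changes were 5.89, 4.39 and 3.51 with it and 5.89, 3.46 and 3.39 without it. Among those called repressed only with it, CYP4F2, a fatty acid hydroxylase, was at 1.46, 1.37 and 8.399 CPM in HCT116-EV and 0.745, 0.504 and 0.537 CPM in HCT116-EHF libraries, MAB21L4 at 0.172, 0.331 and 1.01 CPM in HCT116-EV libraries and at most 0.0750 CPM in HCT116-EHF libraries, and PIWIL1 had 18 reads against 0.

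The genes with the largest increases were ranked among those induced in both fits whose log2 CPM averaged 1 or more over the 6 libraries and that had no overlap between the lines. SAA1, an acute-phase apolipoprotein, led the ranking. Its levels were 0, 0 and 0.0551 CPM in HCT116-EV and 68.6, 71.8 and 73.2 CPM in HCT116-EHF libraries. The HCT116-EV libraries held 3 reads of it in all, which gives a pooled ratio of 2375 (95% exact Poisson interval 812 to 11516, counting error only). RND3, an atypical small GTPase of the cytoskeleton, was at 0.0861, 0.142 and 0.0551 CPM in HCT116-EV and 32.98, 33.4 and 33.2 CPM in HCT116-EHF libraries. The log2 fold change of RND3 was 8.61 (SE 0.24, BH-adjusted p = 6.14e-10, edgeR). VSNL1, a neuronal calcium sensor, was at 0.345, 0.0947 and 0.0919 CPM in HCT116-EV and 58.6, 57.3 and 58.8 CPM in HCT116-EHF libraries, with a log2 fold change of 8.52 (SE 0.25, BH-adjusted p = 8.73e-10, edgeR). For these 3 genes the HCT116-EV libraries were near the detection limit and the HCT116-EHF libraries differed little from each other.

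Several of the other ranked genes act on the cytoskeleton, signalling or secretion. ARHGAP29, a GTPase-activating protein, was at 16.7, 18.1 and 18.5 CPM in HCT116-EV and 402, 409.7 and 416 CPM in HCT116-EHF libraries, with a log2 fold change of 4.52 (SE 0.09, BH-adjusted p = 5.53e-11, edgeR). CDK6, the cyclin D-dependent kinase of the G1 phase, was at 4.01, 4.45 and 3.896 CPM in HCT116-EV and 95.5, 92.4 and 95.3 CPM in HCT116-EHF libraries, with a log2 fold change of 4.52 (SE 0.14, BH-adjusted p = 1.63e-09, edgeR). Both genes were well counted in every library, and replicate 3 was close to the other HCT116-EV libraries. NAV3, a microtubule-binding protein, was at 0.861, 1.14 and 1.19 CPM in HCT116-EV and 25.9, 23.4 and 27.1 CPM in HCT116-EHF libraries. PKIB, an inhibitor of protein kinase A, was at 1.12, 0.568 and 0.735 CPM in HCT116-EV and 26.5, 27.2 and 25.9 CPM in HCT116-EHF libraries, and CADPS2, which primes dense-core vesicles for release, at 0.646, 0.189 and 0.901 CPM in HCT116-EV and 22.2, 20.9 and 21.6 CPM in HCT116-EHF libraries. Their log2 fold changes were 4.55, 5.05 and 5.06, with edgeR adjusted p-values of 9.27e-09, 9.27e-09 and 2.05e-07. The syntrophin SNTB1 (0.301, 0.426 and 0.257 CPM against 13.1, 13.04 and 11.7 CPM with EHF), the deubiquitinase STAMBPL1 (0.172, 0.237 and 0.901 CPM against 11.2, 12.8 and 13.6 CPM with EHF) and the myeloid integrin subunit ITGAM (0.603, 0.237 and 1.25 CPM against 25.9, 24.6 and 24.7 CPM with EHF) complete the 12, which include EHF. In STAMBPL1, CADPS2 and ITGAM replicate 3 was the highest of the HCT116-EV libraries, and their log2 fold changes without it were 5.94, 5.65 and 5.86, against 4.56, 5.06 and 4.97 with it.

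Among the ranked increases with an upstream window in the RefSeq table, PKIB was the one that held the ETS motif searched, CGGAAGT on either strand. This motif was in 10.3% of the 12082 tested genes with a window of 250 bases before the start. The window of PKIB, at chr6:122471671-122471920 on GRCh38.p14 and on the plus strand, is shown because EHF is an ETS factor, with the match (as its reverse complement) in capitals.
PKIB: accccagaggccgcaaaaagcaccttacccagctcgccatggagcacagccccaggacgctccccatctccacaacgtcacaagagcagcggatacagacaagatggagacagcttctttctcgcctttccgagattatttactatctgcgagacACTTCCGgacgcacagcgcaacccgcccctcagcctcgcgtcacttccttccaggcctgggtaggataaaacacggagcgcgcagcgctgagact
The match lay 95 to 89 bases before the annotated start and is a description of the letters, not of binding. Windows were at hand for 73.3% of the induced and 70.9% of the repressed genes, fewer than the 80% needed to compare motif shares between gene groups, so that comparison is void.

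**Figure D2:**
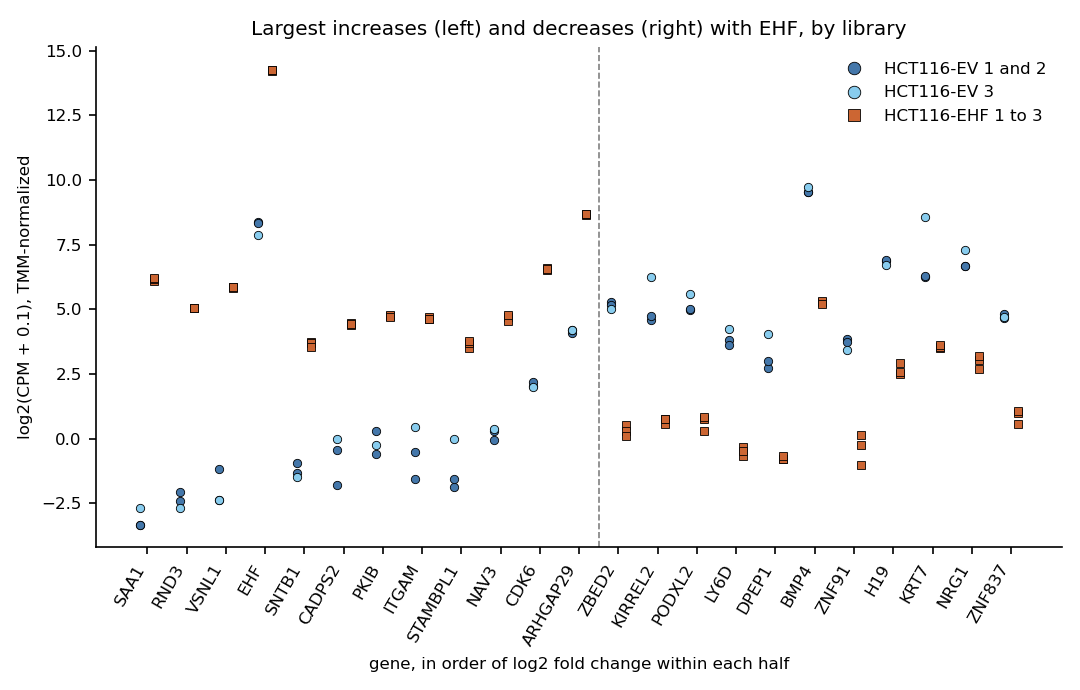
Levels of the ranked genes in each library, as log2 of CPM plus 0.1, with the largest increases on the left and the largest decreases on the right. Circles are the HCT116-EV libraries, with replicate 3 in light blue, and squares the HCT116-EHF libraries. The lines do not overlap for any of the 23 genes, which their selection required.

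The limit on the mean level left out lower genes, some of them without a read in one line. Among genes induced in both fits, 29 had no read in any HCT116-EV library. PLCB1, a phospholipase C that acts downstream of Gq, was at 10.3, 10.4 and 10.6 CPM in HCT116-EHF libraries, at least 73.6-fold higher than the limit of 3 reads in the shallowest HCT116-EV library. KRTAP9-4, a hair keratin-associated protein gene, was at 16.3, 14.5 and 14.1 CPM, at least 105-fold higher. Its neighbours KRTAP9-9 and KRTAP9-8 are near-identical copies, so the split of reads among them is uncertain. RHCG, an ammonium transporter of epithelia, was at 2.34, 3.15 and 2.65 CPM in HCT116-EHF libraries (at least 19.1-fold higher), FOXA2 at 0.798, 0.693 and 0.725 CPM (at least 5.20-fold higher) and TWIST1 at 0.638, 0.672 and 0.687 CPM (at least 4.69-fold higher). Among genes repressed in both fits, 5 had no read in any HCT116-EHF library. KCNH8, a voltage-gated potassium channel, was at 0.646, 0.994 and 2.59 CPM in HCT116-EV libraries, at least 8.84-fold lower with EHF. PLCB1, KRTAP9-4 and KCNH8 were named after their values were seen.

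The largest decreases were led by ZBED2, a zinc finger transcription factor. It was at 38.3, 35.4 and 31.9 CPM in HCT116-EV and 1.33, 1.11 and 0.987 CPM in HCT116-EHF libraries, with a log2 fold change of -4.98 (SE 0.18, BH-adjusted p = 5.93e-09, edgeR). BMP4, a secreted ligand of the BMP pathway, was the most abundant of these genes, at 739.5, 748 and 859 CPM in HCT116-EV and 39.2, 39.9 and 36.5 CPM in HCT116-EHF libraries. Its log2 fold change was -4.34 (SE 0.11, BH-adjusted p = 4.07e-10, edgeR), and the 3 libraries of each line were close together. H19, an imprinted long non-coding RNA, was at 116, 120.0 and 106 CPM in HCT116-EV and 7.45, 5.57 and 5.85 CPM in HCT116-EHF libraries, and NRG1, a ligand of the ERBB3 and ERBB4 receptors, at 103, 101 and 158 CPM in HCT116-EV and 6.44, 8.05 and 9.11 CPM in HCT116-EHF libraries. The lines were clearly apart for both, with log2 fold changes of -4.20 and -3.92 (edgeR adjusted p = 1.57e-08 and 2.08e-07).

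The adhesion and surface genes KIRREL2 (23.9, 26.6 and 76.5 CPM against 1.38, 1.58 and 1.57 CPM with EHF), PODXL2 (31.2, 32.2 and 48.3 CPM against 1.596, 1.13 and 1.67 CPM with EHF), LY6D (13.95, 12.2 and 18.8 CPM against 0.692, 0.525 and 0.625 CPM with EHF) and DPEP1 (6.46, 7.86 and 16.2 CPM against 0.479, 0.483 and 0.525 CPM with EHF) also fell. KIRREL2 is a nephrin-related adhesion protein, PODXL2 a sialomucin, LY6D a GPI-anchored protein of stratified epithelia and DPEP1 a membrane dipeptidase. Replicate 3 was the highest HCT116-EV library in all 4, and their log2 fold changes went from -4.79, -4.67, -4.63 and -4.36 to -4.03, -4.43, -4.43 and -3.82 without it. The remaining ranked genes were KRT7, a keratin of simple epithelia, at 76.3, 78.7 and 378 CPM in HCT116-EV and 11.2, 11.6 and 12.2 CPM in HCT116-EHF libraries, and the zinc finger genes ZNF91 (14.4, 13.3 and 10.6 CPM against 1.01, 0.399 and 0.7498 CPM with EHF) and ZNF837 (25.6, 28.1 and 26.3 CPM against 1.38, 1.87 and 1.97 CPM with EHF). Without replicate 3 the log2 fold change of KRT7 was -2.72 in place of -3.93, still past the 1.5-fold test.

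Changes in gene groups were read from lists written from general knowledge of each process, with earlier results of these data known. They are given beside the median of -0.04, the 5.69% induced and the 2.58% repressed over all genes tested, as a description only. The filter on low counts kept 1268 of the 1482 list entries, some of them only through lines where they were high. Counts are therefore shares of tested genes, not of a whole list. Intestinal transcription factors had a median of 1.19 over 25 genes, of which 9 were induced and 2 repressed, and 9 and 3 without replicate 3. This median was the fitted value of CDX1, which had 1 read in HCT116-EV and 4 in HCT116-EHF libraries, and it was 0.45 in limma voom, 0.93 without HCT116-EV replicate 1 and 1.16 without replicate 3. SOX9, a crypt transcription factor, was at 58.3, 57.1 and 65.7 CPM in HCT116-EV and 176, 168 and 171 CPM in HCT116-EHF libraries, with a log2 fold change of 1.51 (SE 0.10, BH-adjusted p = 9.20e-07, edgeR). PRDM1, a repressor active in the fetal intestine, was at 0.775, 1.14 and 1.32 CPM in HCT116-EV and 4.36, 4.22 and 3.51 CPM in HCT116-EHF libraries, and the endoderm factor GATA6 at 5.08, 4.64 and 4.14 CPM in HCT116-EV and 11.4, 11.8 and 10.9 CPM in HCT116-EHF libraries. All 3 rose, with log2 fold changes of 1.84 for PRDM1 and 1.31 for GATA6 (edgeR adjusted p = 2.44e-04 and 6.16e-06). The 2 repressed members were HNF4A, a nuclear receptor of enterocytes (25.6, 27.1 and 18.5 CPM against 7.87, 7.88 and 8.19 CPM with EHF), and KLF5, a factor of proliferating crypt cells (171, 167 and 183 CPM against 70.2, 62.1 and 65.7 CPM with EHF), with log2 fold changes of -1.57 (SE 0.17, BH-adjusted p = 3.00e-05, edgeR) and -1.40 (SE 0.10, BH-adjusted p = 2.06e-06, edgeR). CDX2 was at 28.9, 37.6 and 23.1 CPM in HCT116-EV and 28.4, 32.8 and 31.96 CPM in HCT116-EHF libraries. Its groups overlapped, with a log2 fold change of 0.06 (SE 0.15, BH-adjusted p = 0.784, edgeR), and of -0.088 without replicate 3. ISX had no read in HCT116-EV and 11 in all HCT116-EHF libraries and did not pass (edgeR adjusted p = 0.0561).

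Among the ETS transcription factors, 6 of 24 tested genes were induced and 1 was repressed, counting EHF, and the list median was 0.27. ETV1, a PEA3-family factor, was at 0.947, 0.473 and 0.478 CPM in HCT116-EV and 10.5, 9.16 and 10.4 CPM in HCT116-EHF libraries, and ETS1 at 3.402, 3.46 and 6.21 CPM in HCT116-EV and 15.7, 18.5 and 18.9 CPM in HCT116-EHF libraries. Their log2 fold changes were 4.03 and 1.98 (edgeR adjusted p = 2.00e-06 and 2.73e-05). SPI1, the myeloid factor PU.1, was at 0, 0.0947 and 0.0919 CPM in HCT116-EV and 0.585, 1.32 and 0.825 CPM in HCT116-EHF libraries, a low level with 140 reads over the HCT116-EHF libraries against 7. The repressed member was ELF5, a factor of the same epithelial branch as EHF, at 2.71, 3.08 and 2.63 CPM in HCT116-EV and 0.0532, 0.252 and 0.337 CPM in HCT116-EHF libraries. ELF3, the closest intestinal relative of EHF, was at 73.5, 72.1 and 121 CPM in HCT116-EV and 91.2, 83.4 and 73.5 CPM in HCT116-EHF libraries and did not pass, with a log2 fold change of -0.11 (SE 0.19, BH-adjusted p = 0.719, edgeR). Without replicate 3, which was the highest library, its value was 0.18. ETS1 was named after its values were seen.

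Genes of enterocytes and of the brush border did not move one way. Of 23 tested, 4 were induced and 3 repressed, with a median of 0.35, and without replicate 3 the numbers were 7 and 3 with a median of 0.87. KRT20, a keratin of surface colonocytes, was at 1.77, 0.994 and 1.58 CPM in HCT116-EV and 0.372, 0.252 and 0.175 CPM in HCT116-EHF libraries, and fell by 2.61 on the log2 scale (SE 0.29, BH-adjusted p = 4.75e-05, edgeR). EPS8L3, an actin regulator of microvilli, was at 3.14, 2.41 and 7.92 CPM in HCT116-EV and 0.106, 0.2101 and 0.287 CPM in HCT116-EHF libraries, and PHGR1 had 23 reads in HCT116-EV and 1 in all HCT116-EHF libraries. The log2 fold change of EPS8L3 was -4.32 (SE 0.46, BH-adjusted p = 3.20e-05, edgeR), and -3.55 without replicate 3. CA2, a carbonic anhydrase of surface colonocytes, was at 19.6, 16.99 and 9.45 CPM in HCT116-EV and 32.7, 33.3 and 35.1 CPM in HCT116-EHF libraries, a rise of 1.15 on the log2 scale (edgeR adjusted p = 0.00192). ANPEP, a brush border peptidase, and MYO1A, a microvillar myosin, were induced at low levels, up to 0.475 and 1.05 CPM. VIL1 was at 0, 0 and 0.1103 CPM in HCT116-EV and 0.372, 0.105 and 0.262 CPM in HCT116-EHF libraries, with 6 reads in HCT116-EV, all in replicate 3, and 33 in HCT116-EHF libraries, and did not pass with all libraries (log2 fold change 1.88, edgeR adjusted p = 0.105). Without replicate 3 it passed the 1.5-fold test, with a log2 fold change of 6.19 (SE 1.81) against replicates 1 and 2 without a read. A limit of 3 reads was 0.129 and 0.142 CPM in those HCT116-EV libraries, above the 0.105 CPM of HCT116-EHF replicate 2. GPA33, with at most 12 reads in a library, was at 0.129, 0.142 and 0.0368 CPM in HCT116-EV and 0.1596, 0.2101 and 0.14996 CPM in HCT116-EHF libraries, and the lines barely failed to overlap. CDH17 (0.0431, 0.237 and 0.239 CPM against 0.266, 0.378 and 0.212 CPM with EHF) overlapped between the lines, and neither gene passed (edgeR adjusted p = 0.238 and 0.368).

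Stem cell markers had a median of 0.06 over 22 genes, with 4 induced and 1 repressed (5 and 3 without replicate 3). PROM1, a membrane glycoprotein, was at 3.96, 3.55 and 6.69 CPM in HCT116-EV and 34.5, 33.3 and 33.8 CPM in HCT116-EHF libraries, with a log2 fold change of 2.80 (SE 0.20, BH-adjusted p = 1.61e-06, edgeR). LGR5, the R-spondin receptor of crypt base cells, had 2 reads in all HCT116-EV and 48 in all HCT116-EHF libraries, a pooled ratio of 16.2 (95% exact Poisson interval 4.24 to 137). OLFM4 had no read in HCT116-EV and 4 reads in 1 HCT116-EHF library, and CDX1 1 read and 4 reads, neither past the test (edgeR adjusted p = 0.257 and 0.481). The repressed member was AXIN2, a feedback inhibitor of WNT signalling, at 98.8, 108 and 24.04 CPM in HCT116-EV and 11.8, 11.03 and 11.2 CPM in HCT116-EHF libraries. Replicate 3 was lower than the other HCT116-EV libraries but above the HCT116-EHF libraries, and the log2 fold change was -2.76 (SE 0.44, BH-adjusted p = 6.16e-04, edgeR). Over the 24 tested WNT targets 3 were induced and 2 repressed, and 4 and 3 without replicate 3, and RNF43, an E3 ligase that removes Frizzled receptors, was at 55.9, 54.9 and 45.2 CPM in HCT116-EV and 143, 135 and 131 CPM in HCT116-EHF libraries, a log2 fold change of 1.39 (SE 0.10, BH-adjusted p = 9.42e-07, edgeR). DKK1, a secreted WNT antagonist, was at 44.1, 44.3 and 119 CPM in HCT116-EV and 341, 319 and 318 CPM in HCT116-EHF libraries, with 2.23 (SE 0.31, BH-adjusted p = 2.43e-04, edgeR), and 2.88 without replicate 3. AXIN2 thus fell while RNF43, LGR5 and DKK1 rose among genes of the same list. Goblet and mucin genes (17 tested, median -0.07) had 1 induced, the ETS factor SPDEF, and 1 repressed, MUC5B, and without replicate 3 there were 5 induced and 0 repressed. Enteroendocrine and tuft genes (14 tested, median 0.83) had 2 induced, the hormone CCK and the cyclooxygenase PTGS1, and 1 repressed, SCG2, and 3 and 1 without replicate 3.

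Keratins had a median of -1.48 over 18 genes with 1 induced and 5 repressed, and -0.38 without replicate 3, with 2 induced and 5 repressed. KRT13, a keratin of stratified epithelia, was at 20.4, 16.9 and 15.4 CPM in HCT116-EV and 1.81, 1.55 and 1.25 CPM in HCT116-EHF libraries, with a log2 fold change of -3.55 (SE 0.25, BH-adjusted p = 1.21e-06, edgeR). The induced member was KRT6A, a keratin of activated epithelium, at 0.0431, 0 and 0.184 CPM in HCT116-EV and 2.13, 2.29 and 2.56 CPM in HCT116-EHF libraries. KRT8, KRT18 and KRT19, the abundant keratins of simple epithelia, did not pass the 1.5-fold test. Stratified epithelial differentiation genes had a median of -0.35 over 16 genes (0.86 without replicate 3) with 4 induced, EHF included, and 1 repressed, GRHL3. The desmosomal cadherin DSC3 was at 1.46, 2.08 and 2.85 CPM in HCT116-EV and 25.6, 24.9 and 24.7 CPM in HCT116-EHF libraries, with a log2 fold change of 3.51 (SE 0.21, BH-adjusted p = 3.52e-07, edgeR). Epithelial junction genes had a median of -0.12 over 41 genes with 2 induced and 2 repressed, and 0.17 with 5 and 2 without replicate 3. With all libraries DSC2 (27.3, 26.7 and 40.3 CPM against 69.4, 65.2 and 66.3 CPM with EHF) and the plakophilin PKP2 were induced, and JUP, which encodes plakoglobin (711, 730.1 and 743 CPM against 397, 397 and 392 CPM with EHF), and the polarity gene LLGL2 were repressed.

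Mesenchymal and matrix genes had a median of 0.62 over 47 genes, with 13 induced (27.7% of those tested) and 1 repressed. Without replicate 3 the median was 0.97, with 22 induced and 1 repressed. The filter on low counts kept 47 of the 63 listed genes. The induced members TWIST1, GREM1 and COL4A1 were below 0.5 CPM in every HCT116-EV library and passed it only through other lines. The 27.7% is therefore no share of the list. COL4A1, a basement membrane collagen chain, had 2 reads in HCT116-EV and 117 in HCT116-EHF libraries, a pooled ratio of 39.5 (95% exact Poisson interval 10.7 to 329.6). VIM, which encodes vimentin, was low in both lines, at 0.129, 0 and 0.0368 CPM in HCT116-EV and 0.904, 0.8402 and 1.09 CPM in HCT116-EHF libraries, with a log2 fold change of 4.14 (SE 0.57, BH-adjusted p = 2.14e-04, edgeR). COL12A1, a fibril-associated collagen, was at 9.43, 10.7 and 46.8 CPM in HCT116-EV and 156, 155 and 162 CPM in HCT116-EHF libraries. It rose by 2.79 on the log2 scale with all libraries and by 3.97 without replicate 3. TIMP3, a metalloproteinase inhibitor, was the repressed member, at 23.7, 22.8 and 47.3 CPM in HCT116-EV and 7.71, 7.31 and 7.598 CPM in HCT116-EHF libraries. Beside these genes, CDH1, the epithelial cadherin, was at 134, 129 and 374 CPM in HCT116-EV and 107, 99.4 and 99.4 CPM in HCT116-EHF libraries. Its log2 fold change was -1.06 (SE 0.32, BH-adjusted p = 0.0258, edgeR), past no change but not past the 1.5-fold test, and -0.37 without replicate 3. VIM and COL12A1 were named after their values were seen.

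Integrin and hemidesmosome genes had a median of 0.16 over 20 genes, with 4 induced and 1 repressed, and 0.76 with 9 and 1 without replicate 3. The laminin chain LAMA3 was at 1.42, 0.663 and 5.11 CPM in HCT116-EV and 12.4, 13.8 and 13.3 CPM in HCT116-EHF libraries, with replicate 3 between the other HCT116-EV libraries and the HCT116-EHF libraries. Its log2 fold change was 2.32 with all libraries and 3.64 without replicate 3 (edgeR adjusted p = 0.00306 and 2.18e-09). ITGA1, a collagen-binding integrin subunit, was at 0.258, 0.189 and 0.478 CPM in HCT116-EV and 3.09, 2.67 and 2.47 CPM in HCT116-EHF libraries. COL17A1, a hemidesmosomal collagen, was at 9.56, 10.6 and 14.9 CPM in HCT116-EV and 3.62, 4.22 and 4.37 CPM in HCT116-EHF libraries and fell by 1.52 on the log2 scale (edgeR adjusted p = 5.48e-05). Extracellular proteases and inhibitors had 3 of 31 genes induced with all libraries and 14 without replicate 3, with 2 repressed in both. The induced members with all libraries were the serpins SERPINB7, SERPINB5 and SERPINB1. SERPINB5, known as maspin, was at 20.4, 15.9 and 15.5 CPM in HCT116-EV and 45.4, 40.3 and 40.8 CPM in HCT116-EHF libraries, and the kallikrein KLK11 was repressed, at 5.34, 6.201 and 14.2 CPM in HCT116-EV and 0.319, 0.168 and 0.387 CPM in HCT116-EHF libraries.

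**Figure D3:**
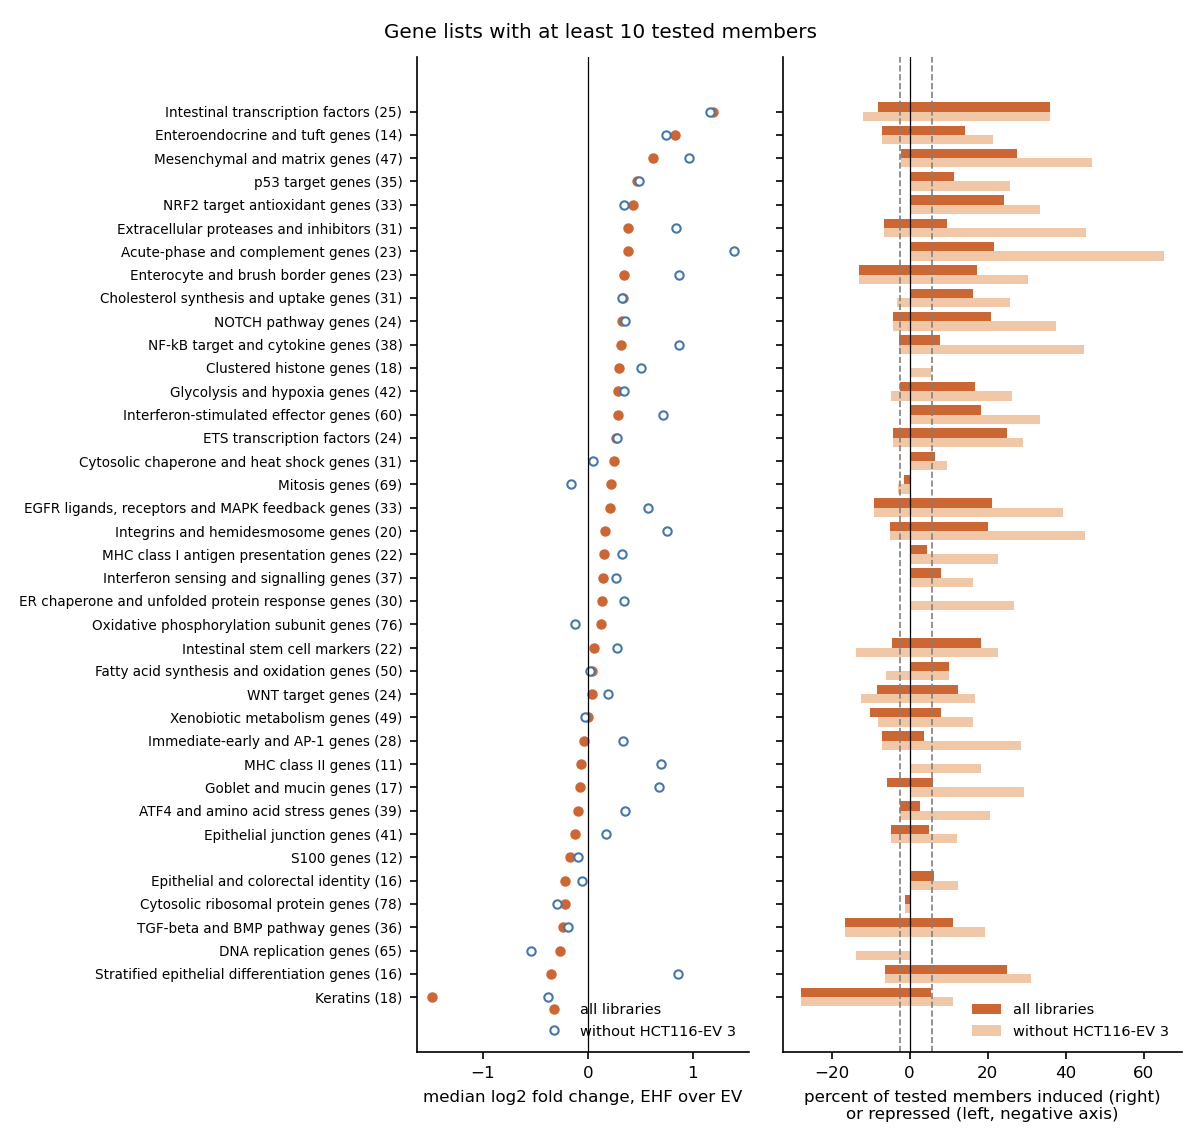
Gene lists with at least 10 tested members, in order of their median log2 fold change (left, filled circles for all libraries and open circles without HCT116-EV replicate 3). Bars on the right give the percent of tested members induced (positive) or repressed (negative), and dashed lines the 5.69% and 2.58% over all genes. The median of mitosis genes is 0.22 with all libraries and -0.16 without replicate 3, and that of intestinal transcription factors 1.19 and 1.16.

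Interferon-stimulated effector genes had a median of 0.29 over 60 genes. Of these, 11 (18.3%) were induced and 0 repressed, and 20 were induced and 0 repressed without replicate 3 (median 0.72). Against no change, 24 were higher and 1 lower in the edgeR test with all libraries. IFIT1, an antiviral protein that binds foreign RNA, was at 2.33, 1.23 and 2.24 CPM in HCT116-EV and 11.2, 10.8 and 10.5 CPM in HCT116-EHF libraries, with a log2 fold change of 2.45 (SE 0.19, BH-adjusted p = 2.72e-06, edgeR). IFI35 was at 0.861, 1.14 and 0.992 CPM in HCT116-EV and 4.79, 5.59 and 5.15 CPM in HCT116-EHF libraries, and OAS1, a synthetase that activates RNase L, at 0.258, 0.379 and 0.478 CPM in HCT116-EV and 2.66, 1.701 and 1.37 CPM in HCT116-EHF libraries. Both rose, by 2.38 and 2.18 on the log2 scale (edgeR adjusted p = 1.49e-04 and 2.00e-04). The lines did not overlap for these 3 genes, and replicate 3 lay between the other HCT116-EV libraries for IFIT1 and IFI35 and was the highest for OAS1. Interferon sensing and signalling genes had 3 of 37 induced, namely SOCS1, IFIH1 and JAK2, and 6 without replicate 3. IFIH1, the cytosolic RNA sensor MDA5, was at 3.83, 5.44 and 6.43 CPM in HCT116-EV and 17.9, 20.9 and 20.7 CPM in HCT116-EHF libraries, and the JAK inhibitor SOCS1 at 3.83, 4.07 and 4.14 CPM in HCT116-EV and 14.3, 14.96 and 16.3 CPM in HCT116-EHF libraries, with log2 fold changes of 1.91 (SE 0.17, BH-adjusted p = 6.40e-06, edgeR) and 1.92 (SE 0.15, BH-adjusted p = 2.87e-06, edgeR). Of the MHC class I genes 1 of 22 was induced, the immunoproteasome subunit PSMB9, at 1.59, 1.704 and 1.43 CPM in HCT116-EV and 4.84, 6.39 and 6.54 CPM in HCT116-EHF libraries, and 5 were without replicate 3. None of the 11 tested MHC class II genes passed the 1.5-fold test or the test against no change (0 genes) in edgeR with all libraries, and 2 passed the 1.5-fold test without replicate 3. The largest change among them was that of CD74, at 0.258, 0.189 and 0.386 CPM in HCT116-EV and 0.372, 0.6302 and 0.675 CPM in HCT116-EHF libraries, with a log2 fold change of 0.97 (SE 0.35, BH-adjusted p = 0.0579, edgeR).

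The upstream windows of IFIT1 and IFIH1 are shown because both genes rose and hold the interferon-stimulated response element, read as GAAA, any 2 bases and GAAA again on either strand, which was in 2.34% of the 12082 windows. The element was also in the windows of SOCS1, TXNRD1 and ACTA2, and of COL17A1, which was repressed. Capitals mark the matches, a pair in IFIT1 and 3 in IFIH1, of which the first pair overlaps. The windows are on the plus strand at chr10:89392373-89392622 for IFIT1 and on the minus strand at chr2:162318685-162318934 for IFIH1, on GRCh38.p14.
IFIT1: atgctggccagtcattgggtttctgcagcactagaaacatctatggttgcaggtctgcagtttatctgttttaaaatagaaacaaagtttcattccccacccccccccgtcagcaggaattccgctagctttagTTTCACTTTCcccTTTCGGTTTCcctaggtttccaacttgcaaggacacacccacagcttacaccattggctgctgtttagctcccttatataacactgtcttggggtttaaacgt
IFIH1: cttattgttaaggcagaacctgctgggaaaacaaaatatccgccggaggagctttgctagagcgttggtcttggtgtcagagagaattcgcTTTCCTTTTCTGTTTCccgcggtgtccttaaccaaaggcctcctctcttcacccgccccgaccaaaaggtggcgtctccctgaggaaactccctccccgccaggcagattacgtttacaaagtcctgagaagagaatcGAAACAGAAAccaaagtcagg
The window of CXCL8, at chr4:73740319-73740568 on the plus strand, holds the AP-1 motif TGANTCA, which was in 4.24% of the windows, and is shown because this chemokine had no read in HCT116-EV replicates 1 and 2.
CXCL8: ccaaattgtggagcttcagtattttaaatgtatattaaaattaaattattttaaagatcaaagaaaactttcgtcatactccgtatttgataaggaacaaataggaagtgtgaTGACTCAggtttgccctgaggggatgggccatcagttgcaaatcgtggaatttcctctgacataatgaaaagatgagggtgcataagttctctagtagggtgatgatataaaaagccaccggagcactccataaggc
All 3 sequences are RefSeq promoters and the matches are descriptions, since binding was not measured here.

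Of the NF-kB targets and cytokines, 3 of 38 were induced and 1 repressed with all libraries, and 17 were induced and 1 repressed without replicate 3. The 3 genes induced with all libraries were IL32, CXCL8 and TNFRSF9. IL32, a proinflammatory cytokine, was at 0.0861, 0 and 0.276 CPM in HCT116-EV and 15.6, 15.8 and 16.2 CPM in HCT116-EHF libraries, with a log2 fold change of 6.57 (SE 0.38, BH-adjusted p = 2.88e-07, edgeR), and 2 reads were left in HCT116-EV without replicate 3. TNFRSF9, the costimulatory receptor 4-1BB, was at 0.129, 0 and 0.496 CPM in HCT116-EV and 3.56, 2.75 and 2.54 CPM in HCT116-EHF libraries. ICAM1, a leukocyte adhesion molecule, was repressed, at 5.297, 6.86 and 13.4 CPM in HCT116-EV and 2.29, 2.27 and 2.52 CPM in HCT116-EHF libraries, and its log2 fold change was -1.87 with and -1.34 without replicate 3. Acute-phase and complement genes had 5 of 23 induced with all libraries (median 0.38) and 15 without replicate 3 (median 1.39). SAA2, a close copy of SAA1, was at 0.0431, 0 and 0.0735 CPM in HCT116-EV and 6.76, 6.05 and 6.97 CPM in HCT116-EHF libraries, and the complement inhibitor SERPING1 at 0.215, 0.189 and 1.16 CPM in HCT116-EV and 5.05, 4.75 and 4.599 CPM in HCT116-EHF libraries. Reads of SAA1 and SAA2 may be split uncertainly between these near-identical genes. Among the 12 leukocyte markers, 5 passed the filter on low counts. Of these 5, 3 were induced, ITGAM, CD14 (0, 0.142 and 0.147 CPM against 1.38, 0.6302 and 0.787 CPM with EHF) and CSF1R (0.172, 0 and 0.349 CPM against 1.28, 1.83 and 1.52 CPM with EHF). CD14 and CSF1R were below 0.5 CPM in every HCT116-EV library and passed the filter only through other lines, so 3 of 5 is no share of the list. PTPRC stayed without a read in HCT116-EHF libraries.

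Immediate-early and AP-1 genes had a median of -0.04 over 28 genes, and 1 was induced and 2 repressed, against 8 and 2 without replicate 3. JUN was at 16.8, 17.99 and 59.1 CPM in HCT116-EV and 116, 111 and 112 CPM in HCT116-EHF libraries and FOS at 53.7, 57.3 and 161 CPM in HCT116-EV and 31.5, 30.5 and 26.9 CPM in HCT116-EHF libraries. For both, HCT116-EV replicate 3 was the highest of its line, and the lines did not overlap. The log2 fold change of JUN was 1.84 with and 2.70 without replicate 3, and that of FOS -1.62 and -0.92, all at an edgeR adjusted p below 0.05. FOSL2 was the other repressed member. Of the 33 EGFR ligands, receptors and MAPK feedback genes, 7 were induced and 3 repressed, and 13 and 3 without replicate 3. The ligand EGF had 1 read in HCT116-EV and 72 in HCT116-EHF libraries, a pooled ratio of 48.6 (95% exact Poisson interval 8.44 to 1944). ERRFI1, a feedback inhibitor of EGFR, was at 134, 140.5 and 288 CPM in HCT116-EV and 587, 587 and 556 CPM in HCT116-EHF libraries, and SPRY1, a feedback inhibitor of RAS signalling, at 1.29, 0.899 and 1.34 CPM in HCT116-EV and 6.33, 5.46 and 5.41 CPM in HCT116-EHF libraries. The repressed members were NRG1, the FGF-binding protein FGFBP1 (81.7, 76.02 and 137 CPM against 11.6, 11.4 and 11.8 CPM with EHF) and the receptor FGFR3 (107, 120.5 and 131 CPM against 56.4, 56.5 and 53.8 CPM with EHF).

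Of the TGF-beta and BMP pathway genes, 6 of 36 (16.7%) were repressed and 4 induced, with a median of -0.24, and 6 and 7 without replicate 3. The ligand BMP4 is described above. The BMP target and pseudoreceptor BAMBI was at 105, 101 and 99.7 CPM in HCT116-EV and 6.76, 7.65 and 9.41 CPM in HCT116-EHF libraries, with a log2 fold change of -3.67 (SE 0.18, BH-adjusted p = 6.20e-08, edgeR). ID4, an inhibitor of basic helix-loop-helix factors and a BMP target, was at 2.67, 3.55 and 2.57 CPM in HCT116-EV and 0.372, 0.483 and 0.187 CPM in HCT116-EHF libraries, with -3.13 (SE 0.34, BH-adjusted p = 4.08e-05, edgeR). ID2 (163, 172 and 193 CPM against 60.9, 62.4 and 67.7 CPM with EHF), ID3 (251, 276 and 172 CPM against 55.4, 60.9 and 61.9 CPM with EHF) and the inhibitory SMAD6 (9.78, 12.02 and 16.2 CPM against 4.73, 6.07 and 5.55 CPM with EHF) were also repressed, in both fits. The ID genes and SMAD6 are known as targets of BMP signalling. On the other side, SMURF2, an E3 ligase of the TGF-beta pathway, was at 83.1, 81.7 and 114 CPM in HCT116-EV and 248, 253 and 252 CPM in HCT116-EHF libraries, with 1.43 (SE 0.12, BH-adjusted p = 6.10e-06, edgeR), and SMAD3 and SKIL were induced as well. ID2, ID3, SMAD6 and SMAD3 were named after their values were seen. NOTCH pathway genes had 5 of 24 induced and 1 repressed (median 0.32), and 9 and 1 without replicate 3. The median was 0.016 without HCT116-EV replicate 1 and 0.089 without replicate 2. The coactivators MAML2 (2.196, 2.22 and 2.17 CPM against 10.7, 11.6 and 11.1 CPM with EHF) and MAML3 and the receptor NOTCH4 were induced and the glycosyltransferase LFNG (27.4, 27.5 and 31.1 CPM against 12.1, 11.2 and 12.6 CPM with EHF) was repressed.

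Stress and metabolic lists moved in part. NRF2 target genes, which encode antioxidant enzymes, had 8 of 33 induced (24.2%), 0 repressed and a median of 0.43, and 11 induced without replicate 3. TXNRD1, a thioredoxin reductase, was at 169, 166 and 190.3 CPM in HCT116-EV and 582, 565 and 587 CPM in HCT116-EHF libraries, with a log2 fold change of 1.72 (SE 0.09, BH-adjusted p = 1.15e-07, edgeR). GCLM, the modifier subunit of glutathione synthesis, was at 18.05, 18.3 and 8.95 CPM in HCT116-EV and 64.8, 66.7 and 64.2 CPM in HCT116-EHF libraries, with 2.13 (SE 0.21, BH-adjusted p = 2.00e-05, edgeR). Of the 9 tested metallothionein and zinc genes 4 were induced, and MT2A was at 40.7, 38.5 and 59.99 CPM in HCT116-EV and 177, 180.5 and 179 CPM in HCT116-EHF libraries. Glycolysis and hypoxia genes had 7 of 42 induced and 1 repressed, and 11 and 2 without replicate 3. The carbonic anhydrase CA9 was at 0.258, 0.237 and 0.276 CPM in HCT116-EV and 4.202, 4.01 and 2.25 CPM in HCT116-EHF libraries, the peptide ADM at 7.11, 8.95 and 17.9 CPM in HCT116-EV and 61.6, 60.9 and 50.7 CPM in HCT116-EHF libraries and the glucose transporter SLC2A1, which was repressed, at 785, 777 and 1276 CPM in HCT116-EV and 237, 246 and 229.7 CPM in HCT116-EHF libraries. Of the p53 targets 4 of 35 were induced, and 9 without replicate 3, with the cell cycle inhibitor CDKN1A at 150.1, 154 and 227 CPM in HCT116-EV and 494, 508 and 491 CPM in HCT116-EHF libraries and the death receptor FAS at 8.01, 8.43 and 13.3 CPM in HCT116-EV and 36.4, 35.98 and 38.3 CPM in HCT116-EHF libraries. Genes of ATF4 and amino acid stress had 1 of 39 induced and 1 repressed, and 8 and 1 without replicate 3, the repressed one being CTH, an enzyme of cysteine synthesis, at 138, 134 and 96.2 CPM in HCT116-EV and 16.9, 15.4 and 15.5 CPM in HCT116-EHF libraries. ER chaperones and unfolded protein response genes had 0 of 30 past the 1.5-fold test with all libraries in edgeR, 5 against no change and 8 past the 1.5-fold test without replicate 3. HSP90B1, with the largest change of that list, was at 878, 875 and 1076 CPM in HCT116-EV and 1679.6, 1593 and 1627 CPM in HCT116-EHF libraries.

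Genes of lipid handling rose in part. ABCG1, a cholesterol efflux transporter, was at 0, 0 and 0.0919 CPM in HCT116-EV and 3.46, 3.34 and 3.24 CPM in HCT116-EHF libraries, with a log2 fold change of 6.02 (SE 0.46, BH-adjusted p = 2.26e-06, edgeR), and all 5 HCT116-EV reads were in replicate 3. ACSL5, which activates fatty acids in the intestine, was at 13.9, 12.5 and 55.5 CPM in HCT116-EV and 229, 212 and 214 CPM in HCT116-EHF libraries, with 2.98 (SE 0.45, BH-adjusted p = 4.22e-04, edgeR), and 4.04 without replicate 3. ANGPTL4, an inhibitor of lipoprotein lipase, was at 2.02, 2.46 and 5.77 CPM in HCT116-EV and 36.7, 39.4 and 24.8 CPM in HCT116-EHF libraries, and ACOX2, a peroxisomal oxidase, at 0.129, 0.379 and 0.1103 CPM in HCT116-EV and 5.905, 6.34 and 5.62 CPM in HCT116-EHF libraries. Cholesterol synthesis and uptake genes had 5 of 31 induced and 0 repressed, and 8 and 1 without replicate 3. Fatty acid genes had 5 of 50 induced and 0 repressed, and 5 and 3 without replicate 3. Xenobiotic metabolism genes had 4 of 49 induced and 5 repressed with all libraries, and 8 and 4 without replicate 3. The carboxylesterase CES1 had 1 read in HCT116-EV and 525 in HCT116-EHF libraries, a pooled ratio of 354 (95% exact Poisson interval 63.3 to 14012), and the repressed members included ALDH3B1 (42.9, 51.4 and 65.8 CPM against 18.2, 19.98 and 21.6 CPM with EHF).

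Proliferation genes were near the median of all genes with all libraries and shifted with replicate 3. The 69 mitosis genes had a median of 0.22 with all libraries and -0.16 without replicate 3, a change of direction. The one called gene with all libraries was KIF18A, a mitotic kinesin, at 102, 100.5 and 52.7 CPM in HCT116-EV and 30.2, 27.96 and 28.7 CPM in HCT116-EHF libraries, repressed with a log2 fold change of -1.55 (SE 0.21, BH-adjusted p = 1.79e-04, edgeR). The 65 DNA replication genes had a median of -0.27 with 0 called in edgeR, and against no change 8 were lower. Without replicate 3 the median was -0.54, with 9 repressed. MCM4, a subunit of the replicative helicase, was at 569, 581 and 199 CPM in HCT116-EV and 251, 246 and 248 CPM in HCT116-EHF libraries, and its log2 fold change was -0.86 (edgeR adjusted p = 0.0421), and -1.21 without replicate 3, where it was past the 1.5-fold test. None of the 76 oxidative phosphorylation subunits passed the 1.5-fold test in edgeR in either fit, with 4 against no change, and their median went from 0.13 to -0.13. NDUFS4, with the largest change of that list, was at 17.6, 16.2 and 14.7 CPM in HCT116-EV and 27.1, 27.5 and 26.98 CPM in HCT116-EHF libraries. The 78 ribosomal protein genes had a median of -0.22. Of the 31 cytosolic chaperones, 3 were induced without replicate 3, and with all libraries HSPB8 (2.71, 2.75 and 1.86 CPM against 8.405, 9.75 and 11.04 CPM with EHF) and DNAJB6 were induced. No S100 gene (12 tested) or clustered histone gene (18 tested) passed with all libraries in edgeR, with 4 and 3 past no change.

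Called genes were in part neighbours on the chromosomes. With genes ordered by their start on GRCh38.p14, 26 runs of at least 3 neighbouring tested genes were induced, holding 87 genes, and 15 were repressed, holding 55 genes. The runs were found in the called genes and carry no test. At the end of the short arm of chromosome 16, 27 genes were tested up to RHOT2 (ending at base 674174), and 16 of them were repressed, 24 were below 0 and the median log2 fold change was -1.20, against -0.13 over the other 715 tested genes of the chromosome. Without replicate 3, 21 of the 27 were repressed, with a median of -1.28. NPRL3, a subunit of a complex that restrains mTORC1, was at 125, 115 and 98.3 CPM in HCT116-EV and 51.1, 48.4 and 47.01 CPM in HCT116-EHF libraries, CAPN15 at 193, 211 and 206 CPM in HCT116-EV and 86.3, 86.5 and 90.6 CPM in HCT116-EHF libraries and RHOT2, a mitochondrial GTPase, at 147, 158 and 237 CPM in HCT116-EV and 60.7, 60.3 and 57.4 CPM in HCT116-EHF libraries. These 3 genes had log2 fold changes of -1.21, -1.21 and -1.61. Beyond RHOT2, WDR24 was at 21.02, 24.2 and 22.1 CPM in HCT116-EV and 19.5, 20.1 and 19.2 CPM in HCT116-EHF libraries and FBXL16 at 102, 126 and 106 CPM in HCT116-EV and 98.1, 101 and 99.7 CPM in HCT116-EHF libraries, with log2 fold changes of -0.19 and -0.16 (edgeR adjusted p = 0.139 and 0.276). Further on, CCDC78 and HAGHL were repressed as well, with -1.65 and -1.06, and CCDC78 did not pass without replicate 3 (-0.87). DNA copy number is not analysed here, so its part in the lower levels of this stretch was not tested. In HCT116-EHF+CDX1 compared to HCT116-CDX1 cells the median of the 27 genes was 0.25.

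On chromosome 17, 7 neighbouring genes from an uncharacterized locus over KRT37, KRT38, KRT32, KRT35 and KRT36 to KRT13 were repressed in both fits, with a median of -4.48. KRT32 and those from KRT35 to KRT38 are keratins of hair. KRT36 was at 2.93, 2.93 and 3.07 CPM in HCT116-EV and 0.0532, 0.126 and 0.162 CPM in HCT116-EHF libraries and KRT32 at 4.91, 3.08 and 4.67 CPM in HCT116-EV and 0.958, 0.6302 and 0.5999 CPM in HCT116-EHF libraries, and KRT35 had 293 reads in HCT116-EV and 3 in HCT116-EHF libraries, a pooled ratio of HCT116-EV to HCT116-EHF of 145 (95% exact Poisson interval 49.1 to 706). On one side, beyond KRT34, which did not pass, KRTAP9-8, KRTAP9-4 and KRTAP9-9 were induced, and those on the other side, KRT15 (15.9, 16.3 and 31.3 CPM against 29.6, 29.2 and 28.2 CPM with EHF) and KRT19, did not pass the 1.5-fold test with all libraries, though KRT15 was induced without replicate 3. The genes of both stretches were named after their values were seen.

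**Figure D4:**
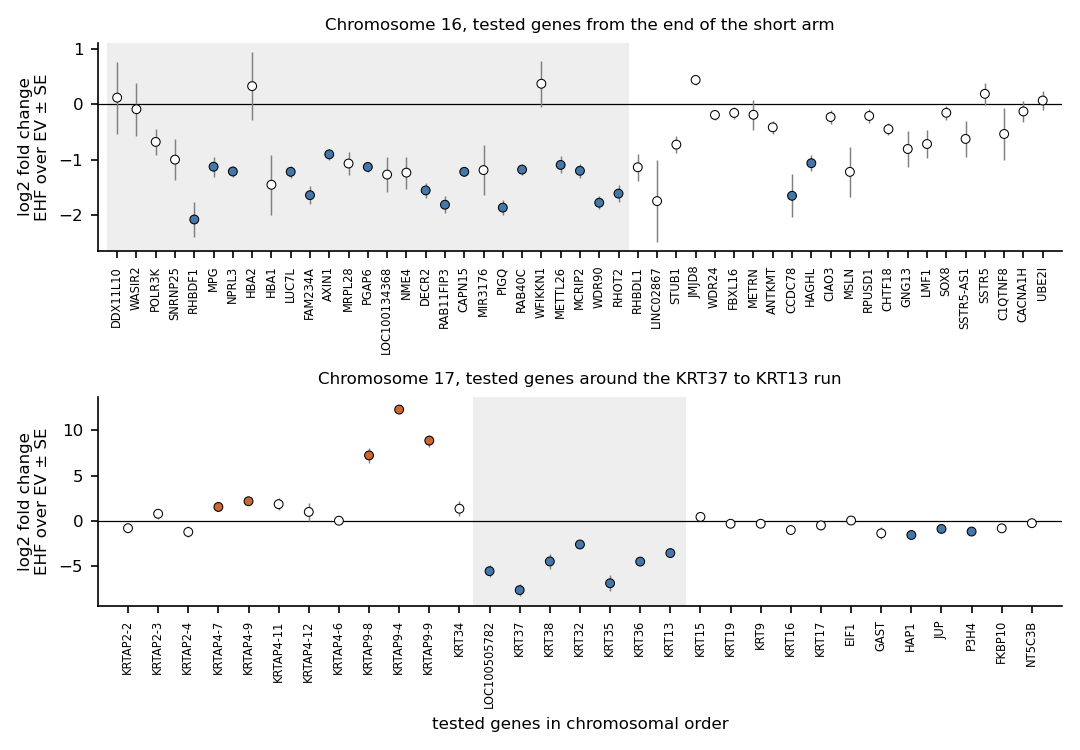
Log2 fold change of HCT116-EHF over HCT116-EV cells with its standard error for tested genes in chromosomal order, around 2 runs of neighbouring genes (grey). Orange points were induced, blue points repressed and white points did not pass the 1.5-fold test. KRTAP9-8, KRTAP9-4 and KRTAP9-9 lie on the opposite side of 0 from the keratin run.

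The EHF plasmid was also present in HCT116-EHF+CDX1 and absent from HCT116-CDX1 cells, and that pair shares no library with HCT116-EHF and HCT116-EV. The mean level of CDX1 was 525 CPM without and 5419 CPM with the EHF plasmid, and EHF had a mean of 12.3 CPM in HCT116-CDX1 libraries, so the pair differed in more than EHF, and the part of CDX1 in its values was not tested. In it 3520 genes (22.2% of those tested) were induced and 2970 (18.7%) repressed in the same edgeR test. Of the 901 genes induced with EHF alone, 340 (37.7%) were induced there and 171 (18.98%) repressed. The 340 were 9.66% of the genes induced in the other pair. Of the 409 genes repressed with EHF alone, 72 (17.6%) were repressed there, close to the 18.7% of all genes, and 128 (31.3%) were induced. The 72 were 2.42% of those repressed in the other pair. Without replicate 3, 473 of 1501 induced genes (31.5%) and 90 of 559 repressed genes (16.1%) were called in the same direction in both pairs.

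Among the ranked increases, SAA1, VSNL1, SNTB1 and EHF were also induced in that pair, with log2 fold changes of 8.60, 7.12, 3.42 and 10.57. RND3 and ARHGAP29 were repressed there, with -1.24 and -1.004, and the other 6 did not pass the 1.5-fold test, with values between -0.58 and 0.64. These 6, RND3 and ARHGAP29 had higher mean levels in HCT116-CDX1 libraries, without the EHF plasmid, than in any HCT116-EV library. Of the ranked decreases, ZBED2, PODXL2, ZNF91 and NRG1 were induced there, with 3.93, 2.42, 1.02 and 2.69, and 7 others did not pass, with values between -0.88 and 0.97. Interferon-stimulated effector genes had 49 of 60 induced in that pair, with a median of 2.70, against 11 of 60 and 0.29 with EHF alone. In the opposite sense, immediate-early genes had 24 of 28 repressed there, against 2 of 28. Repressed there were also 24 of 31 cytosolic chaperones and 64 of 78 ribosomal protein genes, against 0 and 1 with EHF alone. DNA replication genes (55 of 65) and mitosis genes (44 of 69) were mostly induced there, against 0 and 0. HSPA6 averaged 0.406 CPM with the EHF plasmid in that pair and 379 CPM without it. The part of the starting state of HCT116-CDX1 cells in these list shifts was not tested. Of the TGF-beta and BMP pathway genes, BAMBI and ID4 were repressed in both pairs (-2.30 and -1.18 in the other pair), while BMP4 did not pass there (0.23).

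**Figure D5:**
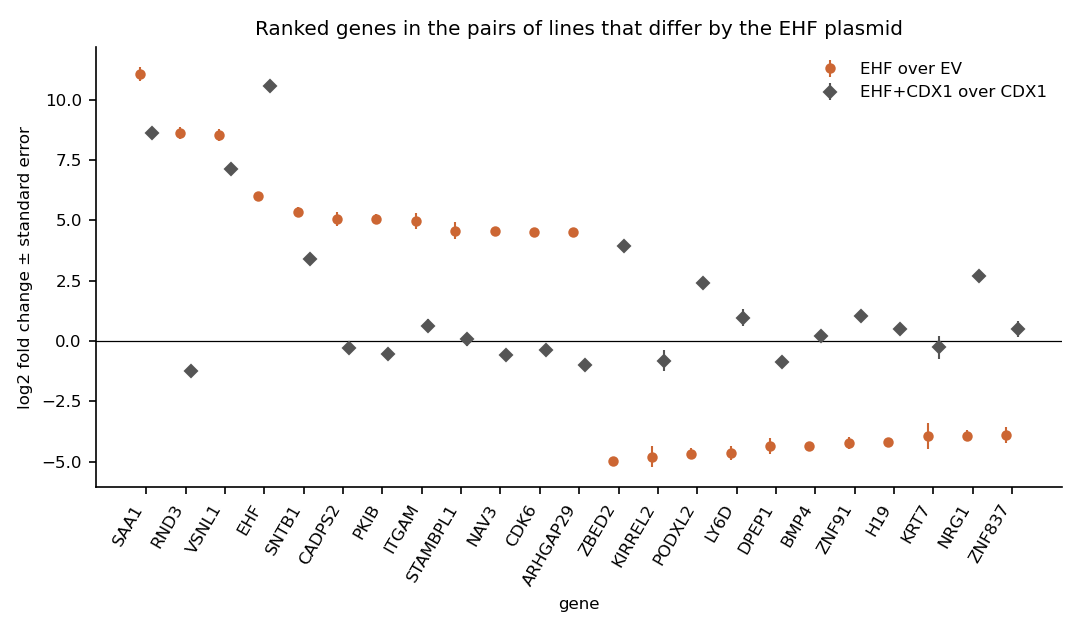
Log2 fold changes with standard errors of the ranked genes in HCT116-EHF over HCT116-EV cells (circles) and in HCT116-EHF+CDX1 over HCT116-CDX1 cells (diamonds). The 12 largest increases are on the left. SAA1, VSNL1, EHF and SNTB1 are above 3 in both pairs, and none of the 11 decreases shown is below -1 in the pair with CDX1.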

How the data were processed

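RNA-seq counts of 12 libraries were used, 3 for each of 4 lines. The authors prepared polyA libraries with a directional kit, aligned reads to GRCh38 with Subread 2.0.0 and deposited raw counts per RefSeq gene from featureCounts 2.0.0, for 28395 genes. The strand setting is not given in the sources used here. The authors also deposited log2 RPKM values, which served for 1 alternative.

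From the counts, edgeR 4.0.16 in R 4.3.3 was used with TMM scaling and the quasi-likelihood model over all 12 libraries. Genes needed a CPM of 0.5 in 3 libraries. Genes of the Y chromosome were left out of the results, leaving 15842. Genes were called by glmTreat with a 1.5-fold limit and an adjusted p (Benjamini-Hochberg) of 0.05, and adjusted p-values of single genes are against no change. Fits without HCT116-EV replicate 3 kept the same genes. Totals ranged from 17528122 to 74186741 counts in the 6 libraries, and intervals cover counting error only.

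Named genes were the 12 largest changes per direction, those of the study, and the largest called members of each list. Other genes were named after their values were seen, and some genes are not reported here. Members and lists were chosen with earlier results of these data known. Upstream windows used the first start listed per gene. Replicate numbers did not pair the libraries. Scripts were tested on simulated data.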

Additional observations from a re-analysis of the deposited data

Results flagged for a closer look

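The 23 ranked genes of HCT116-EHF over HCT116-EV cells were each also tested for a difference between that effect and the effect of the EHF plasmid in the CDX1 lines (edgeR interaction term, adjusted over all genes). All 23 differed at an adjusted p of 0.05. The genes were ranked on the effect without CDX1, so an effect nearer to 0 in the other pair is partly set by that choice. Values are the log2 effect with CDX1 minus the log2 effect without it.

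The difference was positive for EHF, at 4.56, where the starting level was lower in HCT116-CDX1 cells. For the other increases it was -2.47 for SAA1, -9.86 for RND3, -1.41 for VSNL1, -1.91 for SNTB1, -5.36 for CADPS2, -5.57 for PKIB, -4.33 for ITGAM, -4.49 for STAMBPL1, -5.13 for NAV3, -4.88 for CDK6 and -5.53 for ARHGAP29. RND3 and ARHGAP29 moved in opposite directions in the pairs of lines, with a higher starting level in HCT116-CDX1 than in HCT116-EV cells. For the decreases it was 8.92 for ZBED2, 3.98 for KIRREL2, 7.09 for PODXL2, 5.59 for LY6D, 3.48 for DPEP1, 4.57 for BMP4, 5.24 for ZNF91, 4.69 for H19, 3.67 for KRT7, 6.61 for NRG1 and 4.40 for ZNF837. ZBED2, PODXL2, ZNF91 and NRG1 moved in opposite directions in the pairs of lines. Their starting levels differed, with means of 0.396, 2.46, 3.80 and 2.57 CPM in HCT116-CDX1 libraries, below every HCT116-EV library. KIRREL2, LY6D, BMP4, H19 and ZNF837 were also below every HCT116-EV library there, at 2.80, 0.260, 69.8, 3.39 and 1.01 CPM. DPEP1 and KRT7 were not, at 25.1 and 166 CPM. The part of the starting level in these differences was not tested.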

How the results depend on the processing

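With all libraries, edgeR called 901 genes induced and 409 repressed. Against no change in place of a 1.5-fold change these were 2369 and 2390. With only the 6 libraries of HCT116-EHF and HCT116-EV in the fit, 618 genes were induced and 243 repressed, 241 of the latter shared with the 409. Leaving out 1 library at a time gave 720 to 1501 induced and 283 to 559 repressed genes, with 1501 and 559 without HCT116-EV replicate 3. The other counts were within 1.5 times, at 647 and 346 with limma voom and quantile normalization, 743 and 307 with DESeq2, 898 and 410 with RLE factors, 934 and 408 without the filter on low counts, and 662 and 325 with limma on the deposited log2 RPKM values. The same replicate number in both lines did not pair the libraries (correlations of deviations -0.056, 0.080 and 0.028), and the replicate block gave 843 and 363 calls. All 23 ranked genes kept their side of the test under each of the 14 alternatives. They were selected as the largest changes and had to pass without HCT116-EV replicate 3, so this outcome was largely set by that choice. Without replicate 3, 22 of the 44 list medians moved by more than the spread, against 8 with voom and 0 with RLE.

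Genes that changed sign did not pass the 1.5-fold test. With voom and with log2 RPKM the values were -0.20 and -0.40 for GPA33, -0.19 and -0.12 for CDH17, -0.45 and -0.45 for OLFM4, -0.999 and -0.9998 for CDX1, and -0.61 and -0.63 for ERG. Leaving out 1 library at a time gave -2.01 (without HCT116-EHF replicate 3) to 3.28 (without HCT116-EV replicate 3) for CDX1. It gave -0.24 to 0.18 for ELF3, -0.088 to 0.26 for CDX2 and -1.96 to 4.38 for S100P, which were 0.18, -0.088 and 4.38 without HCT116-EV replicate 3. The cause was not tested. The limit of 3 reads, up to 0.160 CPM, bounds what can be said of genes near 0.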

Other observations

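Further runs of neighbouring genes held members of 1 family or gene pair. They were found in the called genes and carry no test. IFIT2 and IFIT3 lie beside IFIT1 on chromosome 10 and rose with it. IFIT2 was at 1.25, 0.568 and 2.66 CPM in HCT116-EV and 6.38, 7.16 and 7.19 CPM in HCT116-EHF libraries, and IFIT3 at 0.818, 0.805 and 1.73 CPM in HCT116-EV and 3.298, 4.41 and 3.999 CPM in HCT116-EHF libraries. On chromosome 16 the metallothionein genes MT2A and MT1E rose together, and MT1E was at 29.8, 28.4 and 41.1 CPM in HCT116-EV and 65.3, 66.4 and 66.1 CPM in HCT116-EHF libraries. Reads of metallothionein copies may be split uncertainly among them. On chromosome 3, ZBED2 was repressed in a run with NECTIN3, a cell adhesion protein, at 185, 173 and 217 CPM in HCT116-EV and 63.9, 66.2 and 68.1 CPM in HCT116-EHF libraries, and CD96, an immunoglobulin family receptor, at 3.14, 3.22 and 2.003 CPM in HCT116-EV and 0.1596, 0.06302 and 0.07498 CPM in HCT116-EHF libraries. On chromosome 6, TCF21, a mesenchymal transcription factor, was in a run with EYA4, a transcriptional coactivator, and was at 1.64, 1.18 and 1.45 CPM in HCT116-EV and 0.106, 0.126 and 0.0625 CPM in HCT116-EHF libraries, while EYA4 was at 1.51, 1.47 and 6.38 CPM in HCT116-EV and 0.0532, 0 and 0.0625 CPM in HCT116-EHF libraries. On chromosome 20, PLCB4 was in a run with PLCB1 and was at 1.16, 1.51 and 3.01 CPM in HCT116-EV and 13.8, 15.2 and 14.97 CPM in HCT116-EHF libraries.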
